A study of Mus musculus with 4 samples.

Results

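Acute-phase and antimicrobial proteins are secreted at epithelial surfaces and by the liver and neutrophils when tissue is stressed, injured or infected. The 9 genes examined were *Lcn2*, *Saa3*, *S100a8*, *S100a9*, *C3*, *Ltf*, *Pglyrp1*, *Hp* and *Slpi*, chosen by symbol, and a gene was measured through each array probe set that carries its symbol alone. By this rule 8 of the 9 genes were measured, each by 1 probe set, among 18193 genes named on the array. No probe set carried the symbol *C3* alone in the annotation used here, so *C3* was not analysed here. With doxycycline, *Lcn2* rose 6.51-fold in 8534 cells and 3.86-fold in 8542 cells, and *Hp* fell by 2.75-fold and 1.74-fold. The other 6 genes did not pass the test or were too dim to be tested.

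The arrays compared 2 mouse mammary tumor cell lines, 8534 and 8542, each established from a primary mammary tumor of an MMTV-tTA/TOP-ICN1 female on an FVB/N;B6 background. In these lines a tetracycline transactivator (tTA), expressed from the mouse mammary tumor virus promoter, drives human ICN1, the intracellular and constantly active part of NOTCH1. Untreated cells have the transgene switched on (ICN1 status On), and cells given 2 µg/ml doxycycline for 24 hours have it switched off (ICN1 status Off). Total RNA was hybridized to Affymetrix mouse arrays, 1 array for each line and condition, 4 in all. Both groups carry both transgenes and differ in the drug, and no doxycycline-treated line without the transgenes was among these arrays. An effect of the drug itself and an effect of losing ICN1 therefore cannot be told apart.

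Values are the MAS5 signal that the authors deposited as log2, a scaled brightness given here in array units, and levels of different genes are not comparable on this scale. The line was the replicate (n = 2 lines), and errors are the SD of the log2 change over the lines. The test was limma's moderated test with line as a block, and a gene was called at a Benjamini-Hochberg adjusted p under 0.05 over 33778 probe sets. The 95% intervals are for each probe set alone, without that adjustment, so an interval can exclude no change for a gene that was not called. A signal under 5.52 units, the 20th percentile of all values, is described as under the floor, and a fold against such a signal is given as a lower bound. *Hey1*, a direct NOTCH target that checks the labels, had 1138 and 96.4 units in 8534 cells without and with doxycycline, and 762 and 101 units in 8542 cells. It fell in both lines, by 11.8-fold and 7.55-fold (limma adjusted p = 0.000283). Quality and scaling were alike on the 4 arrays, with trimmed mean signals of 97.7 to 101.8 units and β-actin 3′ minus 5′ log2 differences of 0.252 to 0.3.

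The proteins of these genes act in different ways. *Lcn2* encodes lipocalin 2, which binds bacterial siderophores and so withholds iron, and *Ltf* encodes lactoferrin, an iron-binding protein of milk and neutrophil granules. *Slpi* encodes an inhibitor of neutrophil elastase that is secreted at mucosal surfaces. *Saa3* is an extrahepatic serum amyloid A gene, and *Hp* encodes haptoglobin, which binds free hemoglobin. *S100a8* and *S100a9* encode the partners in calprotectin, a calcium- and metal-binding complex abundant in neutrophils, and *Pglyrp1* encodes a protein that binds bacterial peptidoglycan. In epithelium many such genes are induced by interleukin signaling through NF-κB, STAT3 and C/EBP factors, and several are expressed in the mammary gland around lactation and involution.

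The 250 bases before the start of transcription are shown for *Lcn2*, *Slpi*, *Ltf* and *Saa3*, the genes with a RefSeq promoter entry whose signal was at or over the floor on all 4 arrays (mouse build GRCm38.p6, sequence 5′ to 3′ on the strand of the gene). Capitals mark matches, on either strand, to 4 short motifs that were searched: TGGGAA (RBPJ, the DNA-binding partner of ICN1), TTCNNNGAA (STAT), TTNNGNAA (C/EBP) and GGNNTTTCC (NF-κB).
Lcn2 (chr2:32387740-32387989, minus strand): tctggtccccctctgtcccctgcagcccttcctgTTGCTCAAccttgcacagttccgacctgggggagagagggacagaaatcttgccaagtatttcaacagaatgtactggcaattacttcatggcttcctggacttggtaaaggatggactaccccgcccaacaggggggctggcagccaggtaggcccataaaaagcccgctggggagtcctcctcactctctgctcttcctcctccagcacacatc
Slpi (chr2:164356508-164356757, minus strand): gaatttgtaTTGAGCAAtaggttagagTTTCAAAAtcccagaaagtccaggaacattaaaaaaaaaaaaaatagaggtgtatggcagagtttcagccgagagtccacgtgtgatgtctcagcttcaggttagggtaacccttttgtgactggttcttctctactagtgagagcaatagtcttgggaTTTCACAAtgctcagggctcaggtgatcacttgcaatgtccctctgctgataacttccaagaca
Ltf (chr9:111019042-111019291, plus strand): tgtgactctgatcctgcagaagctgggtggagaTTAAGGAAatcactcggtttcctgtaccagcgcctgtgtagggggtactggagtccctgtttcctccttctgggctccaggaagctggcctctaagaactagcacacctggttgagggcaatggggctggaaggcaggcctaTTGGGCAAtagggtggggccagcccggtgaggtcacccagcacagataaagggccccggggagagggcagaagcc
Saa3 (chr7:46715677-46715926, minus strand): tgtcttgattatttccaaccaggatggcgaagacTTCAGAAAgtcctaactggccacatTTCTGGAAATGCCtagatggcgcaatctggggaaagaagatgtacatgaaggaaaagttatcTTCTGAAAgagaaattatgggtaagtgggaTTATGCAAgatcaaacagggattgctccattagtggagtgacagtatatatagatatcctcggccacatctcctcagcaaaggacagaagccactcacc

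A C/EBP match lay at 216 to 209 bases before the start in *Lcn2*, which had no match to the other 3 motifs. *Ltf* had 2 C/EBP matches, at 217 to 210 and 75 to 68 bases before the start, and *Slpi* had 3. *Saa3* had 4 C/EBP matches and 1 NF-κB match, and the NF-κB match at 187 to 179 bases overlapped the C/EBP match at 191 to 184 bases. The promoter reference had no entry for *Hp*, so its promoter was not searched. Over the 8 promoters it held of these genes, *C3* included, 7 had a C/EBP match, all but that of *Pglyrp1*. The share over 32851 mouse promoters of the same length was 36.85%. An NF-κB match was in 2 of the 8, those of *Saa3* and *Pglyrp1*, against 4.93% of all promoters. The RBPJ letters were in 1 of the 8, that of *S100a9*, against 21.59% of all, and the STAT letters were in 0 of the 8, against 7.02% of all. These matches describe the letters of a short window and do not show that a factor binds there. The binding of these factors was not measured in these samples.

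Of the 6 genes that reached the expression filter of the test, 1 was called higher with doxycycline (*Lcn2*), 1 was called lower (*Hp*) and 4 were not called. Over all 33778 probe sets tested, 3.69% were called higher and 5.54% lower. By the rule of the study's methods, more than 2-fold the same way in both lines and no test, 1 of the 8 measured genes was higher (*Lcn2*) and 1 was lower (*S100a9*), against 3.44% and 4.4% of all 45037 probe sets. The median log2 change over the 8 genes was 0.81 in line 8534 and -0.17 in line 8542, beside 0.02 and -0.0006 over all probe sets. The median in line 8534 lies midway between *S100a8* and *Pglyrp1*, so its size rests in part on signals under the floor. The median in line 8542 lies midway between *Saa3* and *Pglyrp1*, and its sign rests on genes with arrays under the floor. Those genes were *Pglyrp1* on all 4 arrays, *S100a8* and *S100a9*.

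**Figure D1:**
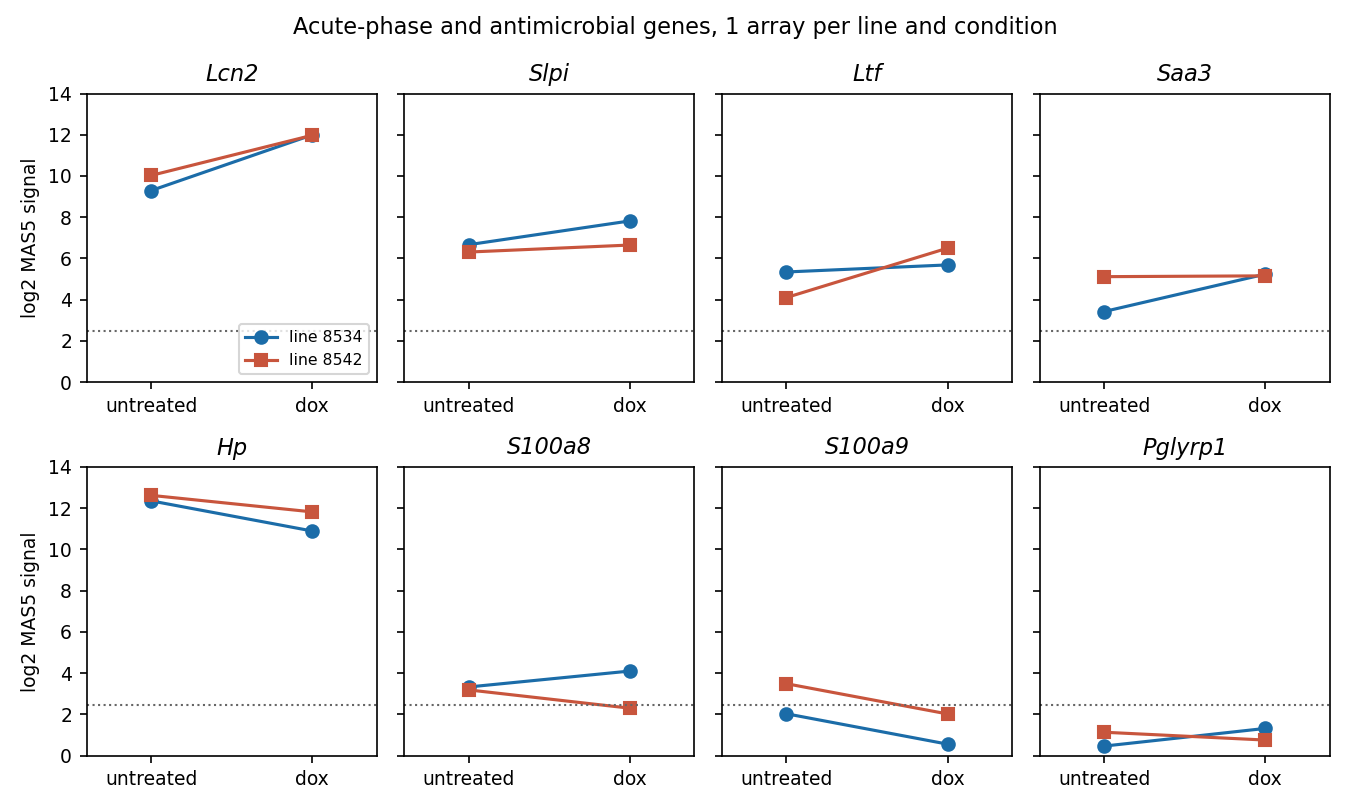
MAS5 signal on the log2 scale (vertical axis) of the 8 measured genes on each array, untreated and with doxycycline (dox), with 1 point per array and a line joining the arrays of 1 cell line. The dotted line is the floor at log2 2.47. *Lcn2* ends at 11.99 and 11.98 in the treated lines from unequal starts of 9.29 and 10.03, *Hp* falls in both lines, and *Pglyrp1* lies under the floor throughout.

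*Lcn2* showed the clearest change. Its signal was 627 units in untreated 8534 cells and 4080 units after doxycycline, and 1042 and 4026 units in 8542 cells. Both treated arrays lay above both untreated arrays, and the treated lines differed from each other by less than the untreated lines did. The mean log2 change was 2.33 ± 0.53 (SD, n = 2 lines; 95% interval 1.91 to 2.74; limma adjusted p = 0.00063). This call was lost without the line as a block (limma adjusted p = 0.0687) and without the intensity trend in the variance (0.227), with the change itself unaltered. The arrays measured RNA from whole cultures, in which more cells expressing a gene and more RNA per cell cannot be told apart.

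*Slpi*, the antiprotease, had a higher treated signal in each line without being called. Its signal was 102 and 226 units in 8534 cells without and with doxycycline, and 79.4 and 100.5 units in 8542 cells. The ratio of treated to untreated was 2.22 in line 8534 and 1.27 in line 8542, and the treated 8542 array lay just below the untreated 8534 array, so the groups overlapped. The mean log2 difference was 0.75 ± 0.58 (SD, n = 2 lines; interval from 0.20 up to 1.30; limma adjusted p = 0.105).

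*Ltf*, the lactoferrin gene, had a larger difference in line 8542 than in line 8534. Its signal was 40.6 and 51.5 units in 8534 cells without and with doxycycline, and 17.2 and 90.6 units in 8542 cells. The treated arrays were above the untreated arrays, by a ratio of 1.27 in line 8534 and 5.26 in line 8542. The mean log2 difference of 1.37 was about as large as its SD of 1.45, and it was not called (n = 2 lines; interval 0.27 to 2.46; limma adjusted p = 0.132).

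*Saa3*, the serum amyloid A gene, showed the opposite order of the lines. Its signal was 10.7 and 37.8 units in 8534 cells without and with doxycycline, and 34.7 and 35.7 units in 8542 cells. The untreated 8534 array was the low one, and the other 3 arrays lay between 34.7 and 37.8 units. The ratio of treated to untreated was 3.52 in line 8534 and 1.03 in line 8542, with a mean log2 difference of 0.93 ± 1.26 (SD, n = 2 lines; interval -0.19 to 2.05; limma adjusted p = 0.311). For this and every other gene the gap between the 2 lines was left untested, since 1 array per line and condition leaves no residual degrees of freedom for it.

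*Hp* was the gene called lower. The haptoglobin signal was 5248 and 1905 units in 8534 cells without and with doxycycline, and 6315 and 3622 units in 8542 cells. Both untreated arrays were above both treated arrays, and the change was smaller in line 8542. The mean log2 change was -1.13 ± 0.47 (SD, n = 2 lines; 95% interval -1.50 to -0.76; limma adjusted p = 0.00567). The call was lost without the line as a block (limma adjusted p = 0.265) and without the intensity trend (0.269), and in line 8542 the fall stayed short of 2-fold.

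The calprotectin genes were dim on all arrays. *S100a8* had 10.1 and 17.2 units in 8534 cells without and with doxycycline, and 9.12 and 4.93 units in 8542 cells. The treated 8542 array was under the floor, so the ratio was 1.71 upward in line 8534 and at least 1.65 downward in line 8542. The mean log2 difference was -0.06 ± 1.17 (SD, n = 2 lines; interval -1.91 to 1.80; limma adjusted p = 0.979), an interval that leaves room for a change in either direction.

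*S100a9* had 4.09 and 1.47 units in 8534 cells and 11.2 and 4.06 units in 8542 cells, untreated and treated. Of these arrays 3 were under the floor and the untreated 8542 array was above it. In line 8542 the treated signal was at least 2.03-fold lower, and in line 8534 no fold is given because both arrays were under the floor. The gene passed the 2-fold rule as deposited, with log2 differences of -1.47 in each line, and did not pass it once signals were raised to the floor. It was below the expression filter and was not tested.

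*Pglyrp1* was under the floor on all 4 arrays, with 1.38 and 2.50 units in 8534 cells and 2.20 and 1.69 units in 8542 cells, untreated and treated. It was not tested, and no fold is given.

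**Figure D2:**
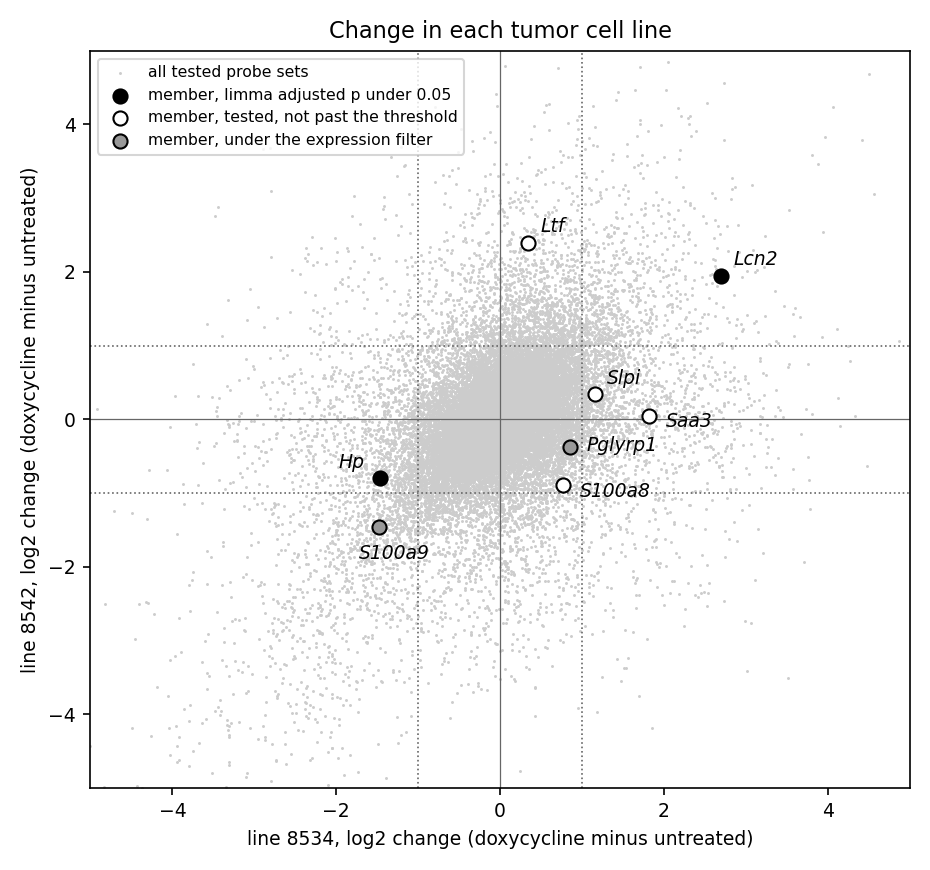
Log2 change with doxycycline in line 8534 (horizontal axis) and line 8542 (vertical axis) for the tested probe sets (grey dots) and the 8 measured genes (circles). Filled black circles passed the limma test, open circles did not and grey circles were under the expression filter, dotted lines mark 2-fold (log2 of 1), and 77 tested probe sets lie outside the axes, which end at 5 on the log2 scale. *Lcn2* lies beyond 2-fold in both lines, while *Ltf* and *Saa3* lie beyond it in 1 line each.

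The wider pathway was examined through 7 lists with 147 measured genes, of which 112 were tested. These lists hold other acute-phase proteins, complement, antimicrobial and antiprotease proteins, the remaining S100 family, other lipocalins, receptors, and inducers with their transcription factors. Of the tested genes 16 were called higher (14.3%) and 1 lower (0.893%), beside 3.69% and 5.54% of all probe sets tested. The pathway figures count each gene by its brightest probe set and the others count every probe set, and the lists were chosen with earlier results of these data known, so the shares are a description.

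Among 16 tested acute-phase genes 2 were called higher, 0 lower and 14 not called, and the median log2 change of the 26 measured was 0.37 in line 8534 and -0.06 in line 8542. Only 15 of those 26 were at or over the floor on all 4 arrays, so these medians rest in part on dim genes. *Cp*, which encodes ceruloplasmin, the copper-carrying ferroxidase of plasma, rose from 249.5 to 716.8 units in 8534 cells, and in 8542 cells from 84.7 to 640.1 units (limma adjusted p = 0.00483). All 8 of its probe sets were higher in both treated lines, with mean log2 differences from 1.16 to 3.45, and 7 were called. *Cd14*, a co-receptor for bacterial lipopolysaccharide, rose 1.45-fold and 1.74-fold (adjusted p = 0.0353), a call lost with no expression filter (0.0537). *Saa1* (adjusted p = 0.903) and *Saa2* (0.948), the hepatic relatives of *Saa3* and named for that reason with values already seen, were not called.

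Of 16 tested complement genes 1 was called higher and 15 were not called, with a median log2 change over the 21 measured of 0.39 in line 8534 and 0.28 in line 8542. Here 12 of the 21 were at or over the floor on all arrays, so the same limit holds. The called gene, *C2*, encodes the component that forms the classical convertase with C4. It rose from 93.3 to 212.6 units in 8534 cells, and in 8542 cells from 54.9 to 197.3 units (limma adjusted p = 0.00615). The call rested on the brightest of its 3 probe sets and was lost over their mean (adjusted p = 0.295).

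Among 20 tested antimicrobial and antiprotease genes 2 were called higher, 1 lower and 17 not called. All 3 called genes belong, like *Slpi*, to the whey acidic protein family of small secreted proteins. *Wfdc18* rose from 1509 to 3371 units in 8534 cells, and in 8542 cells from 1273 to 3811 units (limma adjusted p = 0.00142). *Wfdc2* rose 1.80-fold and 1.45-fold (adjusted p = 0.0120). *Wfdc3* fell from 1980 to 354 units in 8534 cells, and in 8542 cells from 2404 to 487 units (adjusted p = 0.000173), while its other, dimmer probe set had log2 differences of 0.48 and -0.06 (adjusted p = 0.701). The probe sets of *Wfdc3* thus disagreed.

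Of the 10 tested members of the remaining S100 family 4 were called higher and 0 lower, and the median log2 change of the 11 measured was 0.74 in line 8534 and 0.58 in line 8542. *S100a4*, linked to cell motility, rose from 177 to 412 units in 8534 cells, and in 8542 cells from 31.6 to 259 units (limma adjusted p = 0.0149). *S100a6*, which encodes calcyclin, had 3197 and 5343 units in line 8534 and 46.5 and 218 units in line 8542, untreated and treated (adjusted p = 0.0253), so that the lines differed far more than the conditions. *S100a13* rose 1.62-fold and 2.06-fold (adjusted p = 0.0140) and *S100a1* 1.88-fold and 1.49-fold (adjusted p = 0.0374). With no expression filter the calls of *S100a6* (0.0593) and *S100a1* (0.0578) were lost. *S100a3*, named with its values seen, was 2.81-fold higher in line 8534 and 2.62-fold higher in line 8542 without being called (limma adjusted p = 0.0510).

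Of the 6 tested genes among the other lipocalins 0 were called by limma (0 up and 0 down by an unadjusted p under 0.05), and 9 of the 15 measured were below the filter. The list holds 9 genes with at least 1 array under the floor, so no median change is given for it.

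Among 18 tested receptor genes 2 were called higher and 16 not called. *Tlr2*, a receptor for bacterial lipoproteins, rose from 36.0 to 116 units in 8534 cells, and in 8542 cells from 27.3 to 75.1 units (limma adjusted p = 0.00828). *Cr1l*, a membrane regulator of complement, rose 1.51-fold and 1.67-fold (adjusted p = 0.0301), a call lost over the mean of its 3 probe sets (0.778). *Slc22a17*, which encodes a receptor for lipocalin 2 and is named for that role with its values already seen, had log2 differences of -0.09 and -0.13 (adjusted p = 0.750). *Cd163*, also named with its values seen, was more than 2-fold lower in both lines without being called. Its log2 differences were -2.06 in line 8534 and -1.22 in line 8542 (adjusted p = 0.0632).

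Of 27 tested inducers and transcription factors 5 were called higher and 22 not called, with a median log2 change over the 30 measured of 0.06 in line 8534 and 0.29 in line 8542. At an unadjusted p under 0.05, limma counts were 9 higher and 2 lower, the lower genes being *Il1r1* and *Socs3*. In lines 8534 and 8542 the log2 differences were -0.63 and -1.82 for *Il1r1* (limma adjusted p = 0.116). They were -0.80 and -0.22 for *Socs3* (0.147), and neither was called. *Lif*, a cytokine of the interleukin 6 family that signals through STAT3, rose from 73.6 to 433 units in 8534 cells, and in 8542 cells from 50.3 to 196 units (limma adjusted p = 0.00124). Its dimmer probe set had log2 differences of 2.64 and 0.39 and was not called (adjusted p = 0.169). *Nfkbiz*, which encodes the nuclear NF-κB cofactor IκBζ, rose 2.61-fold and 1.85-fold (adjusted p = 0.00868), with 2 of its 3 probe sets called, and the NF-κB subunit gene *Relb* rose 1.82-fold and 2.39-fold (adjusted p = 0.0256).

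*Nfkb2*, another NF-κB subunit gene, rose 1.53-fold and 1.87-fold (limma adjusted p = 0.0409), a call lost with no filter (0.0623) and over the mean of its 2 probe sets (0.282). *Cebpb*, which encodes the C/EBP factor of acute-phase induction, rose from 884 to 1471 units in 8534 cells, and in 8542 cells from 862 to 1341 units (adjusted p = 0.0107). Its dimmer probe set had log2 differences of 0.35 and 0.57 and was not called (adjusted p = 0.136). *Cebpd*, *Stat3* and *Il1a* are named for their roles, with values already seen. *Cebpd* (adjusted p = 0.290) and *Stat3* (0.903) were not called. *Il1a*, which encodes the alarm cytokine interleukin 1α, was under the floor in both untreated lines and reached 12.6 and 13.9 units with doxycycline, at least 2.28-fold and 2.51-fold higher, and it was below the expression filter and not tested.

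**Figure D3:**
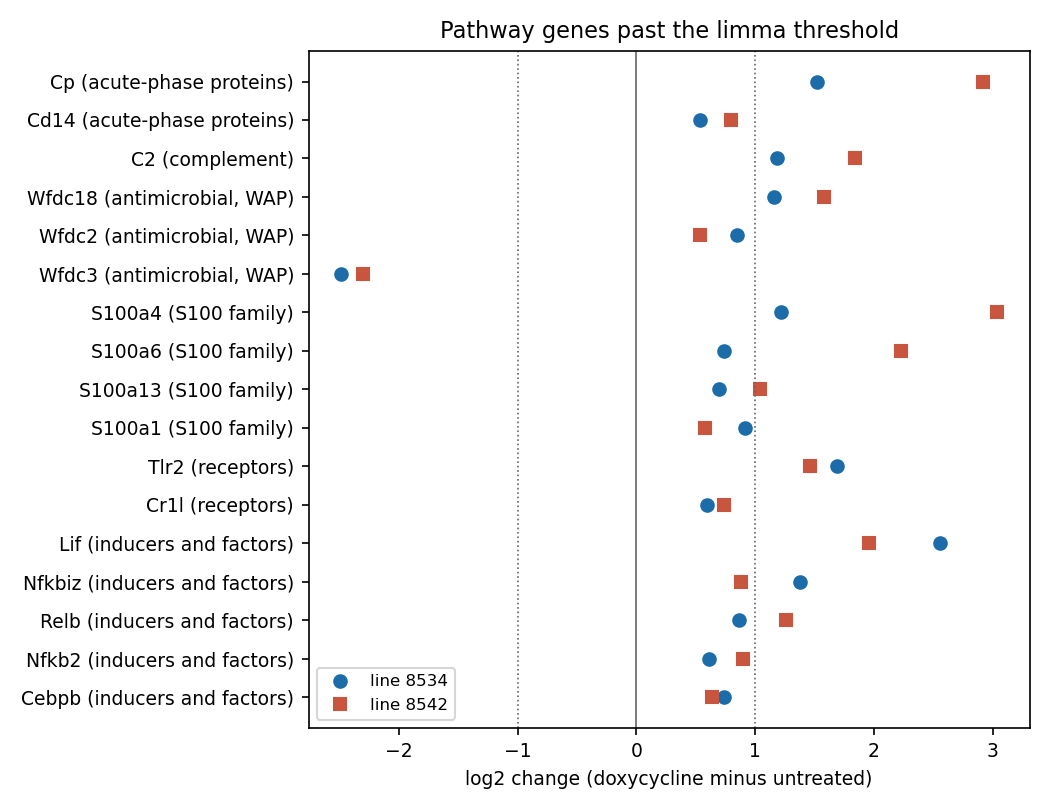
Log2 change with doxycycline (horizontal axis) in line 8534 (circles) and line 8542 (squares) for the 17 genes of the 7 pathway lists that passed the limma test, ordered by list, 1 array per line and condition. Dotted lines mark 2-fold. Both lines changed in the same direction for each of these genes, which the test favors, and *Wfdc3* is the 1 gene that fell.

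Several of these genes are also expressed by other cell types, and the markers of those types were read on the same arrays. Markers named here without a call were picked with their values already seen. Of 8 tested leukocyte markers 0 were called by limma, and 1 of the 11 measured was under the floor on all arrays. Their summed signal was 387.6 and 512.2 units in 8534 cells without and with doxycycline, and 371.2 and 376.9 units in 8542 cells. *Ptprc*, which encodes the pan-leukocyte antigen CD45, had 6.08 to 7.20 units on the 4 arrays, near the floor. *Fcer1g*, an Fc receptor subunit gene, had 5.49 and 42.7 units in line 8534 and 16.5 and 37.7 units in line 8542, untreated and treated (adjusted p = 0.0568), past 2-fold in both lines, with the untreated 8534 array under the floor. *Fcer1g* was called higher once signals were raised to the floor (limma adjusted p = 0.0406) and with a pseudocount at the 20th percentile (0.0444).

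Of 8 tested neutrophil markers 0 were called. The summed signal of the 10 measured was 201.4 and 277.3 units in 8534 cells without and with doxycycline, and 222.4 and 210.1 units in 8542 cells. Among the granule genes *Mpo* had 32.0 to 40.2 units and *Elane* 12.0 to 14.5 units, with *Camp* under the floor on all 4 arrays. *Prtn3*, which also encodes a granule protease, had log2 differences of 1.11 in line 8534 and 0.49 in line 8542. Its mean log2 value of 2.46 was near the floor and below the expression filter, and it was not tested. Other markers on the list were less steady, as *Mmp9*, a granule protease gene, had 8.06 and 46.6 units in line 8534 and 26.9 and 6.87 units in line 8542, untreated and treated (adjusted p = 0.909). *Cxcr2*, a chemokine receptor gene, had log2 differences of -0.24 and -1.29 (adjusted p = 0.632). Of 5 tested hepatocyte markers 0 were called, with summed signals of 81.4 to 122.8 units, and 2 of the 8 measured were under the floor on all arrays. At an unadjusted p under 0.05, limma counts were 1 higher and 0 lower among leukocyte markers, 0 higher and 0 lower among neutrophil markers, and 0 higher and 1 lower among hepatocyte markers. The part of such cells in the results was not tested.

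Of 11 luminal epithelium markers 10 were at or over the floor on all 4 arrays, and *Gata3* was under it on all of them, with 0.487 to 4.01 units. *Krt8* had 4858 and 7165 units in line 8534 and 3467 and 4537 units in line 8542, untreated and treated, and was called higher (limma adjusted p = 0.0295), as were *Krt18*, *Cldn3* and *Cldn4*. With no expression filter the calls of *Krt8* (0.0882) and *Krt18* (0.0599) were lost. *Elf5*, a transcription factor of alveolar luminal cells, fell by 5.06-fold and 3.19-fold (adjusted p = 0.00116), and *Krt19* fell by 1.76-fold and 1.90-fold (adjusted p = 0.00302). The summed signal of 11 luminal markers was 22760 and 27340 units in line 8534 and 20550 and 21470 units in line 8542. The summed signal of 7 basal markers was 4562 and 7811 units in line 8534 and 232 and 289.3 units in line 8542, untreated and treated. *Acta2* (3012 against 147.6 units untreated) and *Krt14* (1379 against 15.9 units) carried that gap between the lines, whereas *Trp63* had 7.53 and 8.85 units and *Oxtr* 49.6 and 40.2 units in untreated 8534 and 8542 cells. With doxycycline the brightest probe sets of these 2 markers went opposite ways. The log2 differences in lines 8534 and 8542 were 1.13 and 0.29 for *Acta2* (limma adjusted p = 0.0688). For the brightest probe set of *Krt14* they were -0.67 and -0.67 (0.0635), and neither gene was called. A *Krt14* probe set of nearly the same brightness had -0.26 and 0.33 (limma adjusted p = 0.949), and the dimmest had -0.07 and -0.47 (0.661). The probe sets of *Krt14* thus disagreed. Of 6 tested basal markers 1 was called higher, *Cnn1*, a smooth muscle calponin gene (adjusted p = 0.0198), a call lost once signals were raised to the floor (0.138). The dimmer probe set of *Oxtr* was lower, with log2 differences of -1.72 and -1.63 (limma adjusted p = 0.0190), while its brighter probe set was not called (0.475). *Myh11* was below the expression filter and not tested. Its brighter probe set had log2 differences of 2.58 and 2.36, and its dimmer probe set -1.10 and -1.24. The part of these shifts in the changes of *Lcn2* and *Hp* was not tested.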

How the data were processed

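RNA of 2 cell lines, untreated or with doxycycline, was measured on 4 Affymetrix mouse arrays, 1 per line and condition. The values deposited by the authors are log2 signals made with MAS5. Their log base was read from the values, and the sources used here do not give the MAS5 version or its scaling target. Of 45101 rows 64 control probe sets were left out. The platform annotation gave 1 symbol to 34945 probe sets, several to 932 and none to 9160, and only the first were named. The brightest probe set by mean log2 value stood for its gene.

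Line and treatment were the terms of a linear model in limma 3.58.1 (R 4.3.3), with a variance trend on intensity and adjusted p-values by Benjamini-Hochberg. Probe sets with a mean log2 value under the 25th percentile (2.94) were left out, which kept 33778. It left 1 residual degree of freedom, to which 6.18 prior degrees were added. Both arrays of a pair are the same line, so line is the block (correlation of deviations within lines r = 0.363). The p-values and intervals rest on the spread between 2 lines and on variance borrowed from probe sets of like intensity. The borrowed part is the prior degrees, which outnumber the residual degree, so an interval can be narrower than the SD implies. With 1 array per line and condition, array noise cannot be separated from that spread, and the number of arrays limits precision. Motifs were searched on both strands of RefSeq promoters. Members and lists were chosen with earlier results of these data known. Named were the members, *Hey1* and called genes of each list, up to 4 per direction, besides genes counted or marked in the text. Alternatives were other filters, no replicate block, no trend, a floor or pseudocount at the 20th percentile, quantile normalization, median centring, the mean over probe sets, and leaving out each line.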

Additional observations from a re-analysis of the deposited data

Results flagged for a closer look

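The deposited signal of *S100a8* was higher with doxycycline in line 8534 and lower in line 8542, and the log2 changes computed from it differ by -1.66 (8542 minus 8534). The treated 8542 array was under the floor of 5.52 units, so the change there is only bounded, as at least 1.65-fold lower. For *Pglyrp1* the same difference is -1.24, between signals that were under the floor on all 4 arrays and have no order. Changes also had opposite signs for *Stat3* (a difference of -0.0886) and for *Mmp9* (-4.50). None of these differences was tested, since 1 array per line and condition leaves no residual degrees of freedom.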

How the results depend on the processing

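The mean changes of *Lcn2*, *Hp*, *Slpi*, *Ltf*, *Saa3* and *S100a9* kept their direction under every alternative run. The calls of *Lcn2* and *Hp* held under other filters, floor, pseudocount and scalings. Without the replicate block, that is without pairing the arrays of a line, limma called 0 members higher and 0 lower (2 and 1 at an unadjusted p under 0.05), 0 pathway genes higher, and 9 probe sets higher and 83 lower. Without the intensity trend it called 0 members higher and 0 lower (1 and 1 unadjusted), 0 pathway genes higher and 0 lower, and 0 probe sets higher and 0 lower (2444 and 2846 unadjusted). Pathway genes called higher ranged from 12 to 19 under the other alternatives, and those called lower were 2 with the filter at the 50th percentile or the floor. Probe sets called higher or lower were 842 and 1404 with no filter. By the 2-fold rule, 0 members were lower with the floor and 0 with the pseudocount. With 1 line left out, where no test is possible, 2 to 3 members were higher (3 without 8542, 2 without 8534) and 1 to 2 were lower. The mean log2 change of *S100a8* turned to 0.0245 with the floor and 0.0286 with the pseudocount and ranged from -0.89 to 0.77 with 1 line left out, and that of *Pglyrp1*, whose signals were all under the floor, ranged from -0.38 to 0.86. With 1 line left out, the change of *Stat3* ranged from -0.01 to 0.0786 and that of *Mmp9* from -1.97 to 2.53. Over the mean of all probe sets it was -0.041 for *Mmp9* and -0.70 for *Saa1*. The causes were not tested. Quantile normalization and median centring shifted the median change of all probe sets to between -0.01 and 0.03. Signals near the floor limit what can be said of *S100a8*, *S100a9* and *Pglyrp1*.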
